A study of Mus musculus with 10 samples.

Results

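Adipose stromal progenitors are fibroblast-like cells of the fat pad that can become adipocytes, and 9 genes whose products mark them were followed here: Pdgfra, Dpp4, Pi16, Ly6a, Ly6c1, Cd34, Cd55, Cd24a and Anxa3. Members were all probe sets (groups of short array probes for 1 transcript) that the platform annotation gives exactly 1 of these symbols. This yielded 17 probe sets of 7 genes, out of 45037 probe sets tested and 18193 genes named. Pdgfra and Cd55 had 3 probe sets each, as had Cd24a, Dpp4 had 4, Pi16 had 2, and Cd34 and Anxa3 had 1 each. The annotation gives Ly6a (Sca-1) no probe set, and the probe set it gives Ly6c1 also carries a second symbol, so neither gene has a value here.

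Gene expression was measured on Affymetrix mouse arrays in epididymal white adipose tissue, a visceral depot that lies against the epididymis. Of the 10 male C57BL/6J mice, 5 had been fed a high-fat diet with 60% fat and 5 normal chow (CRF-1), both for 8 weeks from an age of 8 weeks, and each array held the RNA of 1 mouse. No allele or drug distinguished the groups. Levels are log2 intensities after quantile normalization, on which a difference of 1 is a 2-fold change, and differences are high-fat minus chow with the standard error (SE) from limma. The tissue label was checked on adipocyte markers, of which Adipoq, the adiponectin gene, averaged 13.14 ± 0.09 in high-fat pads and 12.93 ± 0.48 in chow pads (SD, n = 5 each).

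In mouse fat, PDGFRA, the receptor for platelet-derived growth factors, is carried by most stromal progenitors. Single-cell work in mice has placed DPP4, a surface peptidase, with PI16, CD55 and ANXA3 on an early progenitor of the connective tissue around the fat lobules, from which committed preadipocytes can arise. CD34, a sialomucin, and CD24, a small glycoprotein, have been used to sort progenitors from the stromal fraction. Several of these genes are not private to stroma: CD34 is also found on endothelium, CD24 and DPP4 on epithelia, and CD55 on many cell types.

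The chow arrays varied widely in transcripts of other tissues. The mean log2 level of 11 epididymal genes ran from 3.85 to 6.42 in high-fat arrays and from 7.96 to 12.64 in chow arrays, and that of 10 epithelial genes from 3.89 to 4.68 in high-fat arrays and from 6.57 to 10.22 in chow arrays. Within the chow group, the epithelial mean was highest in arrays 1 (9.76) and 2 (10.22), which also had the lowest chow means of 8 adipocyte genes (10.98 and 9.71) and of 12 endothelial genes (7.80 and 6.98). They were not alike in each list: of the chow arrays, array 1 had the lowest epididymal mean (7.96) and array 2 the highest (12.64). The epididymal genes of array 1 were not evenly low. Lcn5, Lcn8, Lcn9 (1.13), Rnase10 and Cst11 (1.32) were the lowest of the chow arrays there. Pate4 (12.95) and Spink8 (13.23) were instead the highest of all arrays in array 1. For the actin control, the signal at the 5' end over that at the 3' end, a sign of RNA integrity, was 0.614 ± 0.0380 in high-fat arrays and 0.341 ± 0.0731 in chow arrays (SD, n = 5 each; 2-sided exact permutation p = 0.00794, the smallest possible, and 0.0119 adjusted over 3 controls). The Gapdh ratio was 1.05 ± 0.0265 in high-fat arrays and 0.726 ± 0.123 in chow arrays (the same exact permutation p values), and the transferrin receptor ratio 0.223 ± 0.262 in high-fat arrays and 0.254 ± 0.142 in chow arrays (exact permutation p = 0.897). The brightest probe set of each member gene is given with and without chow arrays 1 and 2, as are list counts that changed. Of the 8 adipocyte genes 0 were lower over all arrays and 3 without those arrays. For 5 erythroid and platelet genes these counts were 0 and 2 (all genes: 11.9% and 19%).

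At an adjusted p under 0.05, 4 of the 17 member probe sets rose and 4 fell on the high-fat diet. Over all probe sets 9.88% were higher and 8.01% lower, 17.9% together. The higher ones were the 3 of Cd55 and the brighter one of Pi16, and the lower ones were the 3 of Cd24a and 1 of Dpp4. No probe set of Pdgfra, Cd34 or Anxa3 passed. Taking the brightest probe set of each gene, 2 of 7 genes were higher and 1 was lower, against 12.1% and 11.9% (23.9% together) of all genes, and the median change of the 7 was -0.02, against -0.04 over all genes. In 8 of the 17 probe sets the groups did not overlap, against 16.7% of all probe sets (9.48% with high-fat higher and 7.17% with high-fat lower). In bulk tissue, fewer cells of a type and less RNA per cell cannot be told apart.

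**Figure D1:**
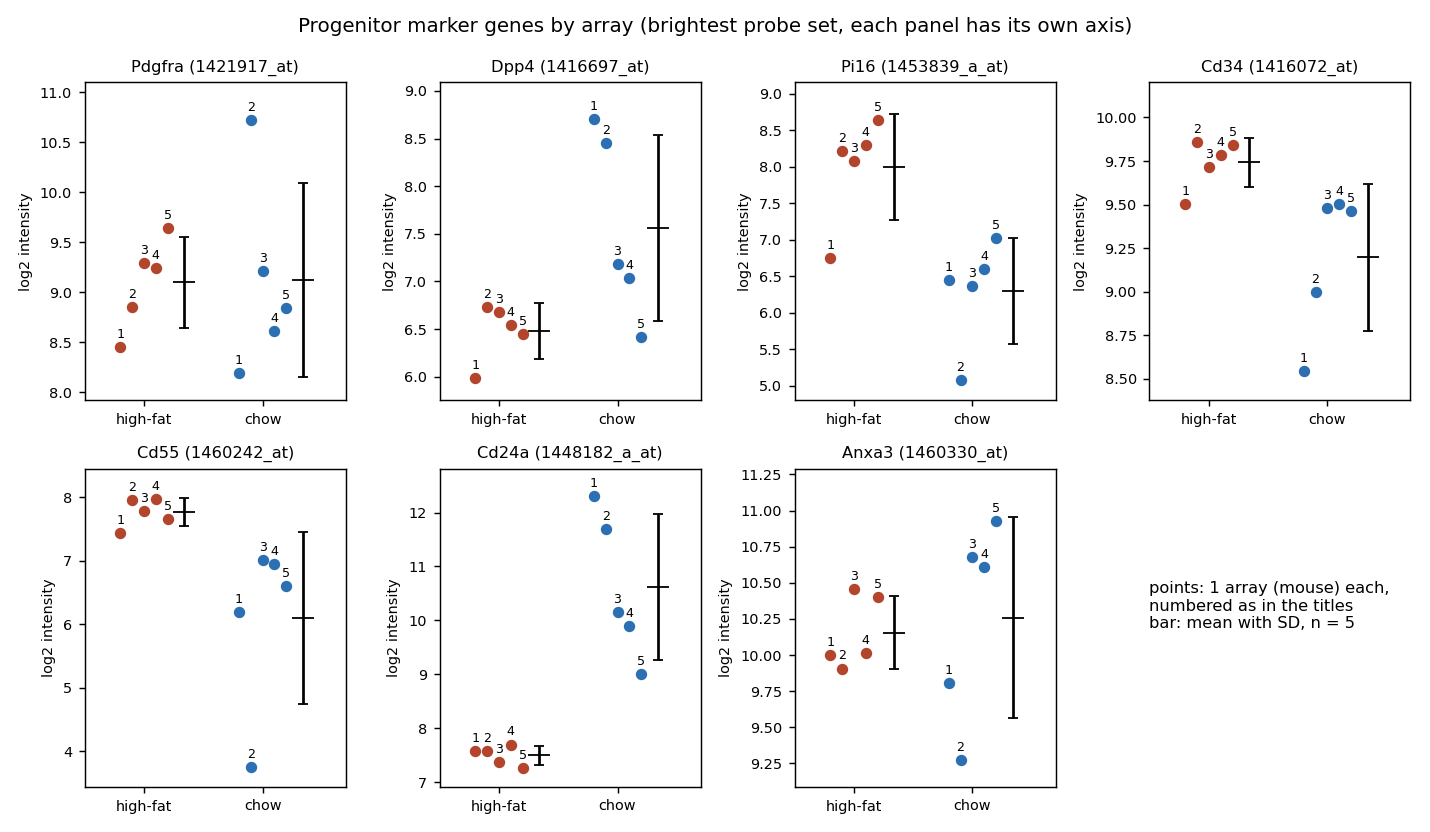
Log2 intensity of the brightest probe set of each of the 7 genes, with each array as a numbered point (high-fat left, chow right) and the mean with SD (n = 5) beside each group. The high-fat arrays lie above all chow arrays for Cd55 and Cd34 and below all of them for Cd24a, and chow array 2 is the lowest of all for Pi16, Cd55 and Anxa3.

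Pdgfra, the receptor shared by the progenitor subsets, had log2 levels of 8.45, 8.86, 9.30, 9.24 and 9.65 in high-fat arrays 1 to 5, against 8.20, 10.72, 9.22, 8.61 and 8.85 in chow arrays 1 to 5. The groups overlapped, and both the lowest and the highest array belonged to the chow group. The difference was -0.02 (SE 0.41, adjusted p = 0.981). Its other 2 probe sets were dimmer and differed by -0.20 (SE 0.72, adjusted p = 0.886) and 0.71 (SE 0.72, adjusted p = 0.559). The high level in chow array 2 recurred in 1 of them (8.04, against 3.60 to 5.61 in high-fat arrays and 3.81 to 5.31 in the other chow arrays). In chow array 2 the mean of 12 general stromal genes was the lowest of all arrays (8.80), so Pdgfra did not follow that mean there. Without chow array 2 the brightest Pdgfra probe set differed by 0.38 (SE 0.25, adjusted p = 0.334). With chow arrays 1 and 2 left out, it differed by 0.21 (SE 0.24, adjusted p = 0.593).

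Pi16, whose secreted and membrane-bound product marks early progenitors, was higher on the high-fat diet. Its brighter probe set had levels of 6.75, 8.21, 8.08, 8.30 and 8.64 in high-fat arrays 1 to 5, against 6.45, 5.09, 6.36, 6.60 and 7.02 in chow arrays 1 to 5. High-fat arrays 2 to 5 lay above all chow arrays, and high-fat array 1 lay within the chow range. Pi16 rose by 1.69 (3.24-fold; SE 0.40, adjusted p = 0.0126), and without chow arrays 1 and 2 by 1.35 (SE 0.36, adjusted p = 0.0182). The other Pi16 probe set was dim, at a mean percentile of 20.3 among all probe sets, and differed by 0.41 (SE 0.76, adjusted p = 0.770).

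Cd55, decay-accelerating factor, which protects cells from complement, was higher by all 3 of its probe sets. The brightest had levels of 7.44, 7.95, 7.79, 7.97 and 7.66 in high-fat arrays 1 to 5, against 6.20, 3.75, 7.01, 6.95 and 6.61 in chow arrays 1 to 5. Every high-fat array lay above every chow array for each of the 3 probe sets, and chow array 2 was the lowest array for each. The 3 probe sets rose by 1.66 (SE 0.52, adjusted p = 0.0485), 1.71 (SE 0.44, adjusted p = 0.0208) and 1.44 (SE 0.41, adjusted p = 0.0307). Leaving out chow arrays 1 and 2, the rises were smaller and their SEs too, at 0.92 (SE 0.15, adjusted p = 0.00105), 1.02 (SE 0.14, adjusted p = 0.000448) and 0.71 (SE 0.13, adjusted p = 0.00178). The calls of these probe sets over all 10 arrays depended on single arrays. When 1 array was left out at a time, the 3 probe sets passed in 3, 8 and 4 of 10 fits, with adjusted p up to 0.103, 0.0538 and 0.0731, and stayed positive in each. Without a trend in the variance prior the adjusted p values were 0.0820, 0.0413 and 0.0566. The leukocyte marker list differed between the groups in the same direction. Of its 10 genes 9 rose, also without chow arrays 1 and 2 (all genes: 12.1% higher, and 17.7% without those arrays). Its mean ran from 10.47 to 11.08 in high-fat arrays and from 7.41 to 7.94 in chow arrays. In chow array 2, the lowest array for Cd55, the leukocyte mean was 7.49, within the range of the other chow arrays. In high-fat array 1, the lowest high-fat array for Pi16, it was 10.47. That was the lowest of the high-fat group but above all chow arrays. The adipocyte mean, like Cd55, was lowest in chow arrays 1 (10.98) and 2 (9.71), but its groups overlapped. The mean of the general stromal genes was 10.46 to 11.09 in high-fat arrays and 8.80 to 10.21 in chow arrays. Within the groups it was lowest in high-fat array 1 and chow array 2. Relative to that mean, Pi16 differed by 0.55 (SE 0.28, limma adjusted p = 0.119). The brightest Cd55 probe set differed by 0.51 (SE 0.38, adjusted p = 0.267). The part of leukocytes, adipocytes or stromal cells in these rises was not tested. With the mean of the epididymal list as a covariate, Pi16 differed by -0.11 (SE 0.57, adjusted p = 0.961). The brightest Cd55 probe set differed by 0.05 (SE 0.98, adjusted p = 0.989). The epididymal mean did not overlap between the groups, so this fit cannot separate it from diet. It called 0.793% of all probe sets.

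**Figure D2:**
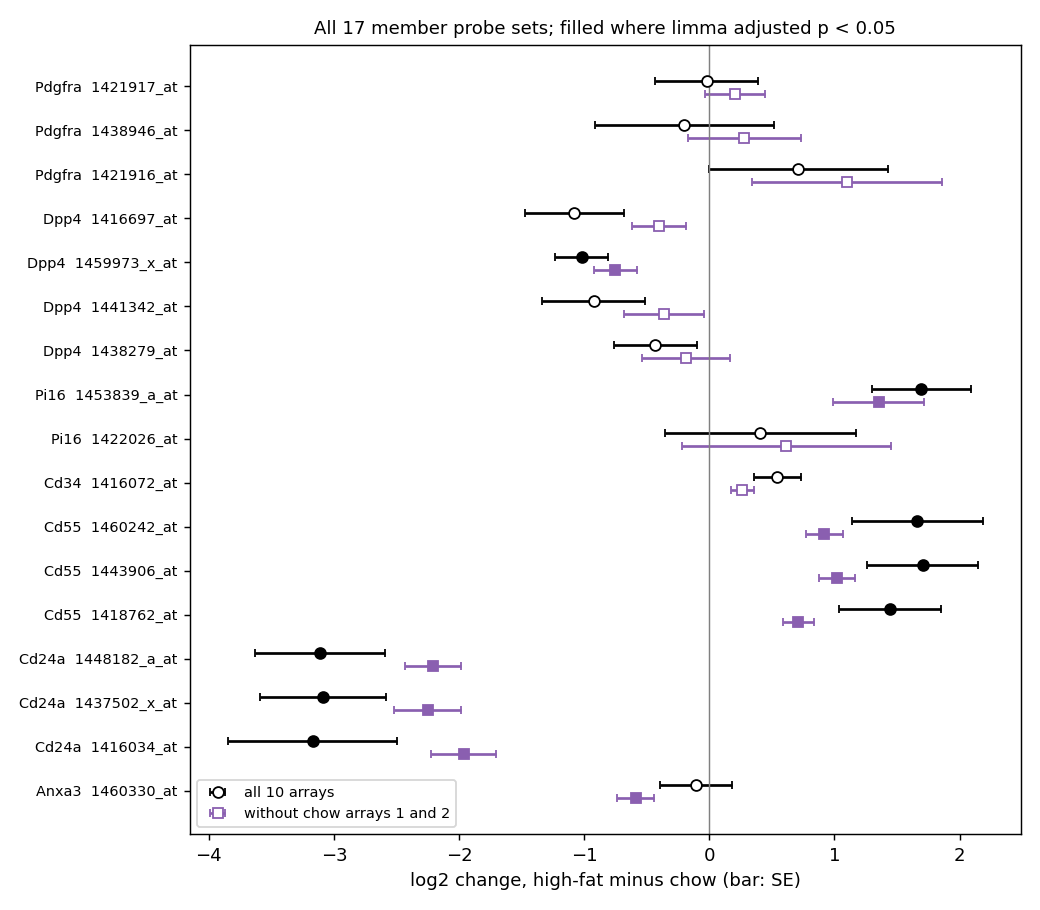
Log2 change (high-fat minus chow, bar: SE) of all 17 member probe sets over all 10 arrays (circles) and without chow arrays 1 and 2 (squares), filled where the limma adjusted p was under 0.05. The 3 Cd24a probe sets lie near -3 and the 3 Cd55 probe sets between 1.44 and 1.71 over all arrays, and both genes lie closer to 0 without the 2 chow arrays.

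The 300 bases around the start of Pi16 and Cd55, both higher on the high-fat diet, and of Dpp4, which has a lower probe set, are shown because these markers of 1 progenitor moved in different directions. They are RefSeq promoter windows of build GRCm38.p6, from 250 bases before to 50 bases after the start, at chr17:29318632-29318931 on the plus strand for Pi16, chr1:130462695-130462994 on the minus strand for Cd55 and chr2:62412182-62412481 on the minus strand for Dpp4, each written 5' to 3' along the gene. Of the 9 genes, 6 were found in the promoter table. Capitals mark matches on either strand to the GC box (GGGCGG), the CCAAT box (CCAAT), the TATA box (TATAAA), an E box (CAGCTG) and an AP-1 site (TGANTCA), none of which overlap here.
Pi16: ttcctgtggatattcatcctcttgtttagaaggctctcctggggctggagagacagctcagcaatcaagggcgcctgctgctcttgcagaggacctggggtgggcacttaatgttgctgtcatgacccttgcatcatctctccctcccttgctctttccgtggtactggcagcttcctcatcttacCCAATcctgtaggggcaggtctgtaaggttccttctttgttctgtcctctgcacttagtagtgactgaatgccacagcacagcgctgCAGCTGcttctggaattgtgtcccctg
Cd55: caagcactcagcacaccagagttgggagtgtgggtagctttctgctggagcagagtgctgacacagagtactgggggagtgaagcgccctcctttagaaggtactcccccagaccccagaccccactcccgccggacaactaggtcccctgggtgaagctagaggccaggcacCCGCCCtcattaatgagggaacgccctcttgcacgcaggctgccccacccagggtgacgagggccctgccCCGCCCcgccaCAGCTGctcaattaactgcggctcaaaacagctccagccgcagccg
Dpp4: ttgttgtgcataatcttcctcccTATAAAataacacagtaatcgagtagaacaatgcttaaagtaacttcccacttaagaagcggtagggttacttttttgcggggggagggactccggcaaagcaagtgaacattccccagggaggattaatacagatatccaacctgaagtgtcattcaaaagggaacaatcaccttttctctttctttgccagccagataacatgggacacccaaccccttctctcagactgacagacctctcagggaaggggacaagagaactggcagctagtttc
Both the Pi16 and the Cd55 window hold the E box CAGCTG, 23 and 4 bases after the start, and these letters are not in the Dpp4 window. Of 32851 promoter windows of the same length, 16.3% hold it. The Pi16 window also has a CCAAT box (37.4% of windows), the Cd55 window has 2 GC boxes (35.7%), and the Dpp4 window has a TATA box match (13.6%) far upstream, 227 bases before the start. None of the 3 windows holds the AP-1 letters (7.81%). These matches describe the letters and bear on no factor.

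Dpp4, the peptidase that names the early progenitor, was lower on the high-fat diet by 1 of its 4 probe sets. That probe set had levels of 6.02, 6.58, 6.63, 6.55 and 6.47 in high-fat arrays 1 to 5, against 7.85, 7.91, 7.45, 7.22 and 6.91 in chow arrays 1 to 5. Each high-fat array was below each chow array, and chow arrays 1 and 2 were the highest. It fell by 1.02 on the log2 scale (SE 0.21, adjusted p = 0.00633), and without chow arrays 1 and 2 by 0.75 (SE 0.17, adjusted p = 0.00839). Its name ends in _x_at, by which Affymetrix marks possible cross-matches to other transcripts, as does that of 1 Cd24a probe set. The brightest Dpp4 probe set differed by -1.08 and did not pass (SE 0.40, adjusted p = 0.0857). Its levels were 5.99 to 6.73 in high-fat arrays and 6.41 to 8.71 in chow arrays, so the groups overlapped in chow array 5 alone. The other 2 differed by -0.92 (adjusted p = 0.153) and -0.43 (adjusted p = 0.422). With those chow arrays left out, the brightest differed by -0.40 (SE 0.22, adjusted p = 0.206).

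Cd24a, the heat-stable antigen used to enrich early fat progenitors, had the largest difference of the 7 genes. The brightest of its 3 probe sets had levels of 7.58, 7.57, 7.38, 7.70 and 7.27 in high-fat arrays 1 to 5, against 12.30, 11.69, 10.16, 9.89 and 9.01 in chow arrays 1 to 5. The high-fat arrays lay close together and below each chow array, while the chow arrays were spread widely. Cd24a fell by 3.11 (8.64-fold; SE 0.52, adjusted p = 0.00181), and its other probe sets by 3.09 (SE 0.50, adjusted p = 0.00160) and 3.17 (SE 0.68, adjusted p = 0.00766). Leaving out chow arrays 1 and 2, the 3 changes were -2.21 (SE 0.22, adjusted p = 6.41e-05), -2.25 (SE 0.27, adjusted p = 0.000156) and -1.96 (SE 0.26, adjusted p = 0.000314).

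Epithelial transcripts moved with Cd24a and Dpp4. All 10 epithelial markers fell, with or without chow arrays 1 and 2, with a median change of -4.02 over all arrays, against 11.9% of all genes lower (19% without those arrays). Among them were Cdh1, the E-cadherin gene (-5.69, SE 0.70), Cldn3 (-5.29, SE 0.80) and Krt18 (-4.85, SE 0.60). The level of Cldn7 was -0.60 to 2.61 in high-fat arrays, near the floor set on dim values, and 6.49 to 10.88 in chow arrays, so the size of its fall depends on that floor. The epithelial mean was 4.68, 3.89, 4.27, 4.09 and 4.01 in high-fat arrays 1 to 5, against 9.76, 10.22, 8.10, 7.23 and 6.57 in chow arrays 1 to 5. Chow arrays 1 and 2 were the highest and chow array 5 the lowest of the chow group for this mean, for the brightest probe set of Cd24a and for that of Dpp4. Of 11 epididymal markers 7 fell and none rose, and without chow arrays 1 and 2 all 11 fell, including Adam7 (-5.83, SE 0.69) and Spink8 (-5.91, SE 0.65). Of 9 mural cell genes 4 were lower (7 without those arrays), among them Myh11, smooth muscle myosin (-3.60, SE 0.66). On the same list Rgs5 (0.14, adjusted p = 0.863) and Cspg4 (0.37, adjusted p = 0.467) differed upward and did not pass. Of 8 mesothelial markers 2 fell, Krt19 (-3.53) and Upk1b (-2.25), and 3 without those arrays. Over all arrays the other 6 did not pass, among them Msln (-0.65, adjusted p = 0.344) and Wt1 (-0.33, adjusted p = 0.562). Cnn1, calponin, fell too, but at -0.39 to 4.47 in high-fat arrays and 6.87 to 12.30 in chow arrays its size depends on the floor. The part of these cells in the Cd24a and Dpp4 differences was not tested. With the epididymal mean as a covariate no member passed, in a fit that called 0.793% of all probe sets. The brightest Cd24a probe set differed by -2.83 there (SE 1.11, adjusted p = 0.313). As that mean did not overlap between the groups, the fit cannot separate it from diet.

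**Figure D3:**
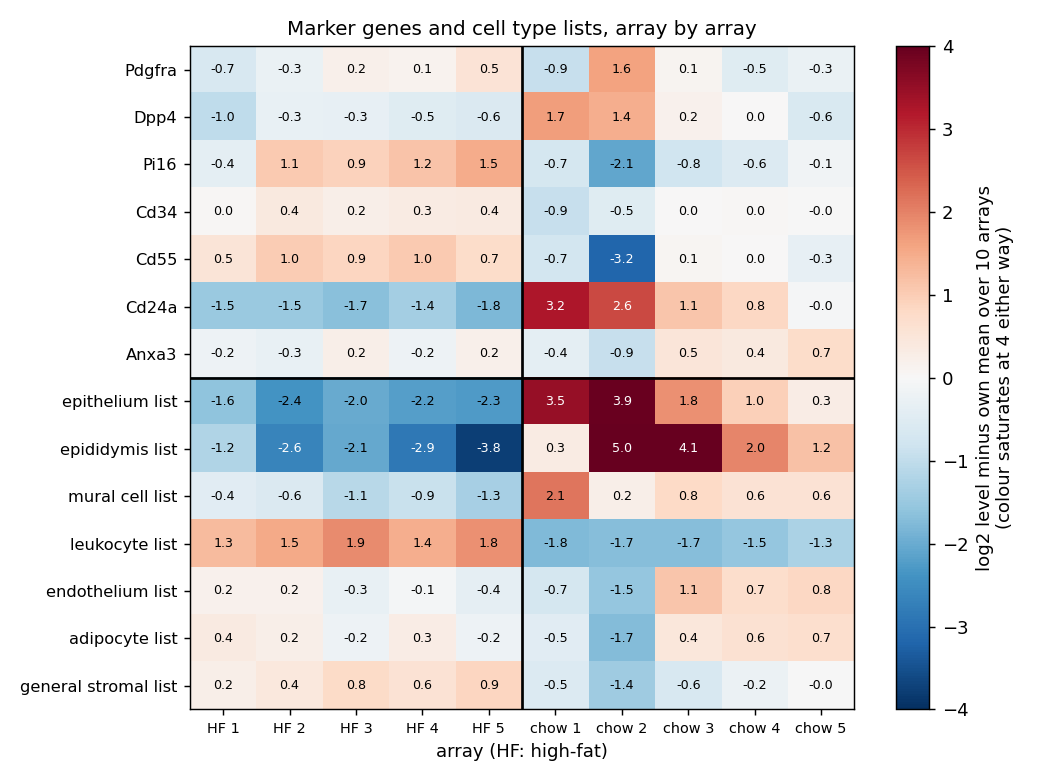
Log2 level of each gene (brightest probe set, upper block) and mean level of 7 marker lists (lower block) in each array, minus its own mean over the 10 arrays, with high-fat arrays on the left. Cd24a, Dpp4 and the epithelium list are highest in chow arrays 1 and 2, where the endothelium and adipocyte lists are lowest among chow arrays.

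Cd34, the sialomucin of progenitors and endothelium, had levels of 9.51, 9.86, 9.72, 9.79 and 9.84 in high-fat arrays 1 to 5, against 8.55, 9.0, 9.48, 9.50 and 9.46 in chow arrays 1 to 5. The groups did not overlap, but high-fat array 1 and chow array 4 were nearly equal. The difference of 0.54 did not pass (SE 0.18, adjusted p = 0.0647). Its call depended on the settings. Passing values were 0.86 (adjusted p = 0.0169) for the values as deposited and 0.99 (adjusted p = 0.00189) after median centring of the arrays, and 0.54 (adjusted p = 0.0459) when dim probe sets were left out. In each of these 3 settings 5 probe sets and 3 genes were higher. The share of tested probe sets called in either direction was 16.2%, 23% and 34%, against 17.9% in the main fit. Leaving out dim probe sets kept the Cd34 change as it was and cut the number tested to 22519. Over all genes the median change was -0.04 after quantile normalization, 0.08 as deposited and 0.21 after median centring. The difference without chow arrays 1 and 2 was 0.26 (SE 0.09, adjusted p = 0.0611). Of 12 endothelial markers none passed over all arrays (median change -0.12). Without chow arrays 1 and 2 none rose and 11 fell (median -0.86), against 17.7% and 19% of all genes.

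Anxa3, a calcium-dependent membrane-binding protein of the annexin family, had levels of 9.998, 9.91, 10.45, 10.01 and 10.40 in high-fat arrays 1 to 5, against 9.81, 9.27, 10.68, 10.61 and 10.93 in chow arrays 1 to 5. Chow arrays 1 and 2 were the lowest of all arrays and chow arrays 3 to 5 the highest. The difference over all arrays was -0.10 (SE 0.29, adjusted p = 0.850). Without chow arrays 1 and 2 Anxa3 fell by 0.59 (SE 0.15, adjusted p = 0.0119), so its call rests on whether these arrays are kept. In that fit 14.2% of all probe sets were higher and 13.9% lower, and 4 member probe sets were higher and 5 lower.

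Set against Pdgfra within each array, the markers were compared for unequal change. After the Pdgfra level was subtracted, 3 of the 14 other probe sets were lower and none higher, against 2.41% and 2.53% of all probe sets. The 3 were those of Cd24a, whose brightest fell by 3.09 relative to Pdgfra (SE 0.57, adjusted p = 9.1e-05). Pi16 differed by 1.72 (SE 0.58, adjusted p = 0.0748), the brightest probe set of Cd55 by 1.68 (SE 0.63, adjusted p = 0.139) and that of Dpp4 by -1.06 (SE 0.55, adjusted p = 0.433). All these limma comparisons share the high Pdgfra level of chow array 2, and without that array 1 probe set was higher and 4 were lower. Without chow array 4 or 5, 3 were higher. With the mean of 12 general stromal genes in place of Pdgfra, 8 of the 14 were lower and none higher, against 47.5% and 2.02% of all probe sets. Pi16 and Dpp4, which mark the same progenitor, were also set against each other, a pair chosen after its values were seen and not tested. The log2 level of Pi16 minus that of Dpp4 was 0.76, 1.48, 1.40, 1.76 and 2.19 in high-fat arrays 1 to 5, against -2.26, -3.37, -0.82, -0.44 and 0.61 in chow arrays 1 to 5. High-fat arrays were all above chow arrays in this difference, chow arrays 1 and 2 were lowest, and since it compares 2 probe sets its size means nothing apart from its change between arrays.

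Other genes of the stroma were described by lists. Of 12 general stromal genes, 8 rose and none fell (all genes: 12.1% higher, 11.9% lower), with a median change of 1.05. They included Lum, the proteoglycan lumican (3.08, SE 0.39, adjusted p = 0.000293), the collagens Col1a1 (2.25, SE 0.40) and Col3a1 (1.65, SE 0.34), and Cd248, endosialin (1.74, SE 0.46). Pdgfrb, the partner receptor of Pdgfra, differed by 0.18 (adjusted p = 0.847) and Dcn, decorin, by 0.17 (adjusted p = 0.747). Without chow arrays 1 and 2 there were 8 higher and 1 lower, against 17.7% and 19% of all genes.

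Of 17 further genes of the interstitial, Dpp4-positive progenitor, 7 rose and 1 fell (all genes: 12.1% higher, 11.9% lower), with a median change of 0.46. Among those that rose, Pcolce2, an enhancer of collagen processing, rose by 4.37 (SE 0.53, adjusted p = 0.000228), with 10.60 ± 0.19 in high-fat arrays and 6.23 ± 1.38 in chow arrays (SD, n = 5 each). Mfap5, a microfibril protein, rose by 2.10 (SE 0.42), Emilin2, an elastic fibre protein, by 1.95 (SE 0.52), and Fn1, fibronectin, by 1.82 (SE 0.41). Efhd1 was the gene that fell (-0.81, SE 0.22, adjusted p = 0.0234). Of the secreted signals on the list, the semaphorin Sema3c differed by 0.47 (adjusted p = 0.206), Wnt2 by 0.46 (adjusted p = 0.648) and Bmp7 by -1.88 (adjusted p = 0.0965). When chow arrays 1 and 2 were left out, 8 rose and 1 fell, against 17.7% and 19% of all genes.

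Counts near the share over all genes (12.1% higher, 11.9% lower) were found for the later stromal stages. Of 11 genes of committed preadipocytes only Col15a1, a basement membrane collagen, rose (2.33, SE 0.41, adjusted p = 0.00249) and none fell. Pparg, the master regulator of fat cell formation, differed by 0.11 (SE 0.59, adjusted p = 0.929), and the fatty acid carrier Cd36 by 0.73 (adjusted p = 0.161). Pparg, Cd36, Fabp4 and Lpl are also strongly expressed by mature adipocytes. Of 10 genes of the CD142-positive stromal subset, Bgn, biglycan, rose by 1.01 (SE 0.23, adjusted p = 0.00968) and Fmo2, a monooxygenase, fell by 0.88 (SE 0.24, adjusted p = 0.0270). F3, the gene of CD142 itself, differed by 0.26 (SE 0.32, adjusted p = 0.646). Without chow arrays 1 and 2, 2 preadipocyte genes were higher and 1 lower, and 1 CD142 gene was higher and 3 lower, against 17.7% and 19% of all genes.

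**Figure D4:**
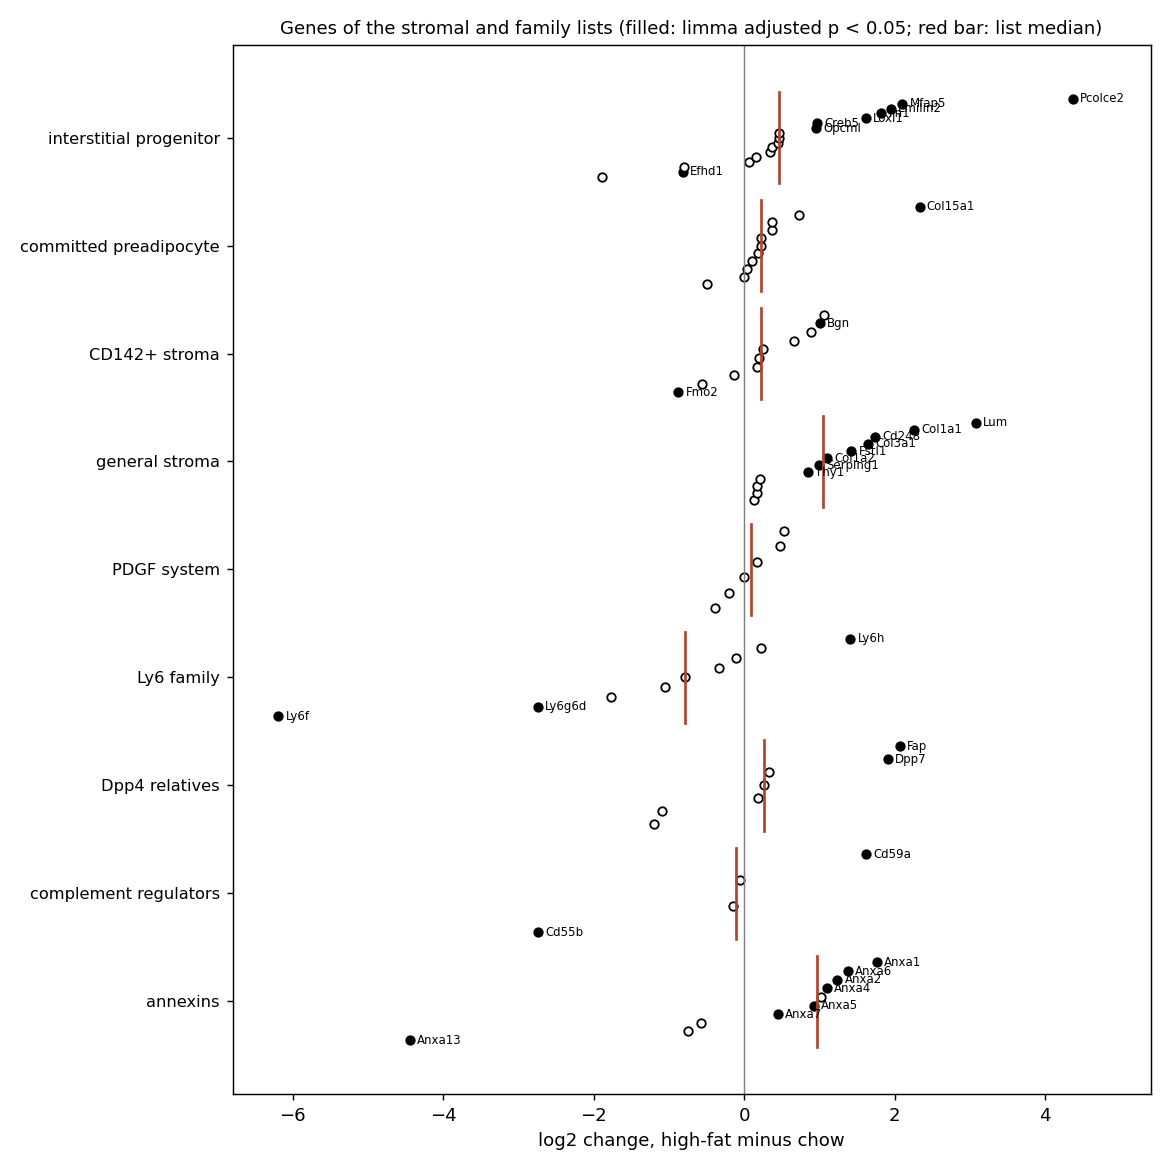
Log2 change (high-fat minus chow) of each gene of 4 stromal lists and 5 family lists, filled and named where the limma adjusted p was under 0.05, with the list median as a red bar. The general stromal list has 8 higher and no lower genes and the interstitial progenitor list 7 higher and 1 lower, while the committed preadipocyte list has 1 higher gene.

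Ligands and relatives of the markers were also described. Of 6 genes of the PDGF system, none passed in limma, and the ligand genes Pdgfa and Pdgfc differed by -0.003 (SE 0.13, adjusted p = 0.993) and 0.48 (SE 0.21, adjusted p = 0.141); at an unadjusted p under 0.05, Pdgfc was the only one. Without chow arrays 1 and 2, 2 of the 6 were lower, against 19% of all genes. Of 7 relatives of Dpp4, 2 rose and none fell (all genes: 12.1% higher, 11.9% lower). They were Fap, fibroblast activation protein (2.07, SE 0.57, adjusted p = 0.0273), and the lysosomal peptidase Dpp7 (1.91, SE 0.32, adjusted p = 0.00189). Without chow arrays 1 and 2, 3 were higher and none lower, against 17.7% and 19% of all genes. Fap levels were 8.22 ± 0.09 in high-fat arrays and 6.16 ± 1.495 in chow arrays (SD, n = 5 each). Among 4 complement regulators, Cd59a, which blocks the membrane attack complex, rose by 1.62 (SE 0.30, adjusted p = 0.00350). Cd55b, the near copy of Cd55, fell by 2.74 (SE 0.65, adjusted p = 0.0130) but was dim in both groups, at 0.05 ± 1.11 in high-fat and 2.80 ± 0.98 in chow arrays.

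Of 10 other annexins 6 rose and 1 fell, against 12.1% and 11.9% of all genes. Without chow arrays 1 and 2, 7 rose and 1 fell, against 17.7% and 19%. Anxa1 rose by 1.77 (SE 0.22, adjusted p = 0.000239), Anxa6 by 1.38 (SE 0.33) and Anxa2 by 1.24 (SE 0.17), while Anxa13, an annexin of epithelia, fell by 4.44 (SE 0.94, adjusted p = 0.00738). In the Ly6 family, whose members Ly6a and Ly6c1 have no value here, 2 of 9 genes fell and 1 rose. Over all genes 11.9% were lower and 12.1% higher. Without chow arrays 1 and 2 only 1 fell and none rose, against 19% and 17.7% of all genes. Ly6f fell (adjusted p = 0.00431), with levels of -0.08 to 4.10 in high-fat arrays and 5.59 to 11.29 in chow arrays, the lowest near the floor. Of 5 relatives or binding partners of CD34 and CD24 none passed. Without chow arrays 1 and 2, 1 was lower, against 19% of all genes. The largest difference was that of Podxl, podocalyxin, a relative of CD34 (-1.45, SE 0.49, limma adjusted p = 0.0653, unadjusted p = 0.0131).

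For each marker the genes of most similar profile over the 10 arrays were found, by the root mean square (RMS) difference between mean-centred log2 levels, among 11939 genes brighter than the median probe set. The closest to Pi16 was Loxl1, a lysyl oxidase of elastic fibres (RMS difference 0.31), followed by Egr3 (0.34) and Rasa4 (0.35). Cd24a was closest to Hook1 (0.30), Spint2 (0.32) and Rab17 (0.32). Pdgfra was closest to St6galnac4 (0.27), Sema3d (0.27) and Slc17a5 (0.27). The nearest to Dpp4 were Tnik (0.21), Pigf (0.24) and Strbp (0.25), and to Cd55 Slc36a2 (0.16), Nudt7 (0.35) and Dhdh (0.35). Cd34 had Cmpk1 (0.12), Rtp4 (0.12) and Xaf1 (0.13) nearest, and Anxa3 had Zfp36 (0.17), Sertad1 (0.18) and Man2a1 (0.19). The marker genes themselves were not among the 3 nearest of one another.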

How the data were processed

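Each of the 10 arrays has 1 linear intensity per probe set in the deposited table, for 45101 probe sets. Per the labels' protocols, RNA of single mice was turned into biotin-labelled cRNA; the summary algorithm and scaling are not stated in those labels. Values under 0.658, the level of percentile 5 over the table, were set to it before the log2 step. As the array medians differed by 0.616, over a limit of 0.5, the arrays were quantile normalized. The 64 control probe sets were left out. Array medians as deposited were between 17.8 and 27.3. Precision is limited by having 5 arrays a group.

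Names came from the platform annotation, with symbols updated through RefSeq gene IDs: 34958 had 1 symbol, 932 several and 9211 were not listed. All 45037 probe sets were fitted with limma 3.58.1 in R 4.3.3 (lmFit, eBayes with trend) and adjusted with Benjamini-Hochberg over all of them at 0.05. A gene's list value is that of its brightest probe set. In 20 lists 196 genes were given and 180 found. Text names all member probe sets, per list at most 4 genes of the greatest change that passed (or 2 by smallest p), the 3 genes of nearest profile, and genes a sentence is about. Others of a list were chosen after their values were seen. The members, lists and alternatives were chosen with earlier results of these data known.

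Same-numbered arrays of the groups were not related (correlations of deviations from -0.012 to 0.011). On simulated data of the high-fat against chow comparison over 45037 probe sets, limma found 36% of 100 log2 changes of 1 and 87% of 100 of 2, with 3 false calls among 126. The simulated noise was Gaussian with the same SD in both groups, and changes were placed in probe sets above the median level. In the data the groups can differ in spread (brightest Cd24a probe set: SD 0.17 in high-fat and 1.35 in chow arrays), so these rates need not hold. Alternatives were other scalings, floors, priors, weights, filters, a block, a covariate and left-out arrays.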

Additional observations from a re-analysis of the deposited data

Results flagged for a closer look

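In 3 of the 34 groups of 5 arrays examined, 1 array lay far from the others by Dixon's test, which by chance marks about 1 group in 20. The dimmest Pdgfra probe set was at 1.60 in high-fat array 1, with the next lowest high-fat array at 4.33. The Dpp4 probe set that passed the test was at 6.02 in high-fat array 1, with the next at 6.47. The brightest Cd55 probe set was at 3.75 in chow array 2, with the next at 6.20. Without chow array 2 the 3 Cd55 probe sets still rose, by 1.08 for the brightest.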

How the results depend on the processing

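The falls of the 3 Cd24a probe sets and the rise of Pi16 passed in each of the 10 fits that left out 1 array, with changes of -3.51 to -2.70 for the brightest Cd24a probe set and 1.40 to 2.0 for Pi16. The brightest Cd55 probe set passed in 3 of those fits (those without chow array 2, 3 or 4; change 1.08 to 1.90, adjusted p 0.00210 to 0.103) and the other 2 Cd55 probe sets in 8 and 4. The brightest Dpp4 probe set passed only without chow array 5 (-1.37, adjusted p = 0.0214). Counts over these fits ran from 1 to 4 probe sets higher and 4 to 6 lower, from 1 to 2 genes higher and 1 to 2 lower, and relative to Pdgfra from 0 to 3 probe sets higher and 3 to 4 lower, with 3 higher without chow array 4 or 5. With the values as deposited, median centred, or with dim probe sets left out, Cd34 passed too (5 probe sets and 3 genes higher). These fits called 16.2%, 23% and 34% of the probe sets tested. Without a trend in the variance prior 2 probe sets and 1 gene were higher. With the replicate number as a block, which does not pair the samples, 1 gene was higher (the brightest Cd55 probe set had an adjusted p = 0.0650). With the epididymal list mean as a covariate 0 probe sets and 0 genes were higher and 0 lower. Pi16 had the opposite sign there (-0.11, SE 0.57, adjusted p = 0.961), and limma called 357 probe sets in all. That mean did not overlap between the groups, so the fit cannot separate it from diet. The cause of the lost calls was not tested. Without chow arrays 1 and 2 together 2 genes were lower (Cd24a and Anxa3), 1 probe set was higher relative to Pdgfra, 2 committed preadipocyte genes were higher and 1 lower, 3 CD142 genes were lower and 1 general stromal gene was lower. With the general stromal mean in place of Pdgfra 8 probe sets were lower, in a fit that called 47.5% of all probe sets lower.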
